A study of Homo sapiens with 4 samples.

Results

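The genes described here are 10 genes that are switched on by ERK signaling or that act back on it: *DUSP1*, *DUSP2*, *DUSP4*, *DUSP5*, *DUSP6*, *SPRY4*, *SPRED1*, *SPRED2*, *EGR1* and *PHLDA1*. They were chosen by gene symbol in the RNA-seq table of MV4-11 cells, and the FPKM values (sequenced fragments relative to transcript length and to the library's mapped reads) of a gene's RefSeq rows were summed in each library. All 10 were listed, among 16490 genes with a value, and all 10 were among the 12142 genes that were tested, those averaging 0.5 FPKM or more over the 4 libraries. MV4-11 is an established human AML cell line of monocytic type with a KMT2A fusion and an activating internal tandem duplication of FLT3. The data hold 2 libraries of cells carrying the control hairpin sh-NC, which the labels call CEBPG presence, and 2 libraries of cells carrying sh-CEBPG#3, labelled CEBPG knockdown. Both groups were infected with a pLKO.1-puro lentivirus and selected with puromycin, and the knockdown rests on 1 hairpin. The time of harvest for RNA-seq, and whether a group's 2 libraries were infected apart, are not given in the sources used here, so p-values measure only the spread between these libraries. In bulk RNA, fewer cells of a type and less RNA per cell cannot be told apart.

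The RAS-RAF-MEK-ERK cascade carries signals from growth factor and cytokine receptors, FLT3 among them, to the nucleus. Active ERK induces immediate-early genes within minutes and also induces its own inhibitors: dual-specificity phosphatases (DUSPs), which remove the activating phosphates from MAP kinases, and the Sprouty and Spred proteins, which hold back RAS and RAF. The transcripts of several of these inhibitors, *DUSP6* and *SPRY4* among them, are widely read as an output of the pathway.

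The targeted gene was lower in both knockdown libraries, and *CEBPG* had 30.4 and 33.6 FPKM in sh-NC and 19.2 and 17.1 FPKM in sh-CEBPG#3, 56.8% of the control mean. FPKM totals were between 364353 and 389766 per library. Across the genes tested, Pearson's r on log2(FPKM + 1) was 0.993 and 0.994 between libraries of one group and 0.962 to 0.964 between groups, so no library stood apart from its partner. The read depth behind each value is unknown, since FPKM values carry no counts. All 9 myeloid markers looked up (*PTPRC*, *CD33*, *FLT3*, *MPO*, *LYZ*, *HOXA9*, *MEIS1*, *CSF1R* and *CD14*) were listed. *CD14* had only 0.187 and 0 FPKM in sh-NC and 1.09 and 0.697 FPKM in sh-CEBPG#3, and was too low to be tested. The summed level of the 9 was 782 and 849 FPKM in sh-NC and 3399 and 3238 FPKM in sh-CEBPG#3, of which *LYZ*, the secreted lysozyme of granulocytes and monocytes, made up most. The markers did not move together. Of the 8 tested, 4 rose and 2 fell, beside 18.5% and 23.8% of all genes tested. *MEIS1* fell to 48.0% of its control mean (log2 fold change -0.87, adjusted p = 8.31e-05 in limma) and *HOXA9* to 77.6% (-0.36, adjusted p = 0.0167). Of 9 markers of other lineages, 2 were listed, at no more than 0.324 FPKM in any library, and *HBG1*, *HBB*, *CD3E*, *MS4A1*, *PF4* and *EPCAM* are among those without a row. The part of the myeloid markers' changes in the results that follow was not tested.

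Of the 10 genes, *DUSP2* rose and *DUSP6* fell upon *CEBPG* knockdown, while the other 8 did not pass the test. The 2 phosphatases thus moved in opposite directions. Across all genes tested, 42.2% passed an adjusted p of 0.05 in limma, 18.5% as higher and 23.8% as lower in sh-CEBPG#3. With 2 of 10 past it, 1 in each direction, the genes had a smaller share than that background, a difference that was not tested. The threshold used by the study was a p under 0.05 before adjustment with a log2 fold change beyond 1 either way. The study applied it to DESeq2 results. Applied here to limma on log2(FPKM + 1), it was passed by the same 2 of 10 genes. That was a larger share than the 3.41% of all genes tested (2.36% higher, 1.05% lower), and this was not tested either. These shares are therefore not those of the study. The median log2 fold change of the 10 genes was 0.001, beside -0.04 over all genes tested.

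**Figure D1:**
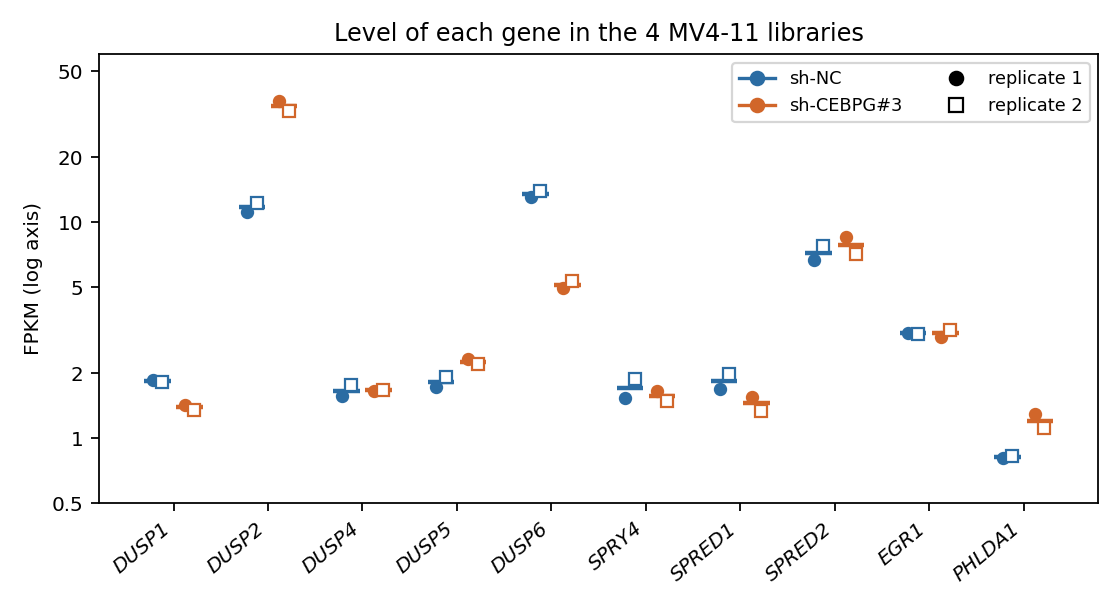
FPKM (log axis) of each of the 10 genes in the 4 MV4-11 libraries, with sh-NC in blue and sh-CEBPG#3 in orange. Each point is 1 library, filled for replicate 1 and open for replicate 2, and the bar is the group mean. *DUSP2* lies at 32.8 and 36.4 FPKM in sh-CEBPG#3 against 11.2 and 12.3 FPKM in sh-NC, and *DUSP6* at 4.95 and 5.33 FPKM against 13.0 and 13.9 FPKM.

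*DUSP2* encodes an inducible nuclear MAP kinase phosphatase known for its high expression in activated blood cells. The gene lies on the minus strand of chromosome 2, from 96143169 to 96145440 (GRCh38.p14), and was listed by 1 RefSeq row, NM_004418. Its level was 11.2 and 12.3 FPKM in sh-NC and 36.4 and 32.8 FPKM in sh-CEBPG#3. Both knockdown libraries were above both control libraries by far more than the distance between partners. The means were 11.7 ± 0.783 FPKM and 34.6 ± 2.54 FPKM (SD, n = 2 each), a ratio of 2.95. On the log2(FPKM + 1) scale, which understates the change of genes with low values, the log2 fold change was 1.48 with a standard error of 0.09 (Benjamini-Hochberg adjusted p = 1.23e-06, limma). Of all genes tested, 99.1% had a lower log2 fold change.

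*DUSP6* encodes the cytoplasmic phosphatase that is selective for ERK and is induced by it. The gene lies on the minus strand of chromosome 12, from 89347235 to 89352501. It had 13.0 and 13.9 FPKM in sh-NC and 4.95 and 5.33 FPKM in sh-CEBPG#3. Here both knockdown libraries were below both control libraries. The means were 13.5 ± 0.62 FPKM and 5.14 ± 0.271 FPKM (SD, n = 2 each), so the knockdown kept 38.2% of the control level. The log2 fold change was -1.24 with a standard error of 0.09 (adjusted p = 4.94e-06 in limma), and 0.44% of the genes tested had a lower one. An exact two-sided permutation test of 2 libraries against 2 cannot give a p under 0.333, so these p-values rest on how limma shares the variance among genes.

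*DUSP6* was listed by 2 RefSeq rows, which fell together. NM_001946, the more abundant one, had 11.5 and 12.6 FPKM in sh-NC and 4.62 and 5.12 FPKM in sh-CEBPG#3, 40.4% of its control mean. NM_022652 had 1.53 and 1.26 FPKM in sh-NC and 0.33 and 0.206 FPKM in sh-CEBPG#3, 19.2% of its control mean. Its share of the *DUSP6* sum was 11.8% and 9.08% in the control libraries and 6.67% and 3.86% in the knockdown libraries, and this shift between rows was not tested. When each of 18624 RefSeq rows was tested separately, which was added with the data in view, NM_001946 passed (log2 fold change -1.15, adjusted p = 0.0191 in limma) and NM_022652 did not (-0.92, adjusted p = 0.0672). GENCODE places a lncRNA gene on the opposite strand over *DUSP6* exons, and no source states that strand was used, so reads of the 2 cannot be told apart.

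The promoters of both genes are shown because these are the 2 genes that changed, and that of *EGR1* because its binding sites for SRF, the factor that couples ERK signaling to immediate-early genes, are textbook examples. Each window runs from 250 bases before the gene's start to 50 bases into the transcript, 5′ to 3′ on the gene's strand, from RefSeq on GRCh38.p14. The windows are chr2:96145391-96145690 (minus strand) for *DUSP2*, chr12:89352452-89352751 (minus strand) for *DUSP6* and chr5:138465229-138465528 (plus strand) for *EGR1*. Capitals mark the 50 transcribed bases in *DUSP2* and *DUSP6* and the CArG boxes, the sites read by SRF, in *EGR1*.
DUSP2: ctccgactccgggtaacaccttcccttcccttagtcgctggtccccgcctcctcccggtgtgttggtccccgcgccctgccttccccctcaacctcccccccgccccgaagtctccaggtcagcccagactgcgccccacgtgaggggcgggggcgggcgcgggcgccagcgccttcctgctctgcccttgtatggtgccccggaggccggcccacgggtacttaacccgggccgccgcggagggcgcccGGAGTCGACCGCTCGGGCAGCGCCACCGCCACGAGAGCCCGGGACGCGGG
DUSP6: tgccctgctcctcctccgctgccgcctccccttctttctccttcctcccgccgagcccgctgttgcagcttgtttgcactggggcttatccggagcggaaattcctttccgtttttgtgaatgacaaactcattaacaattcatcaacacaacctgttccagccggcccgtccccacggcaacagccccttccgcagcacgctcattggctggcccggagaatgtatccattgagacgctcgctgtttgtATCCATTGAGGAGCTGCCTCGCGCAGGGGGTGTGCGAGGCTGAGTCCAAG
EGR1: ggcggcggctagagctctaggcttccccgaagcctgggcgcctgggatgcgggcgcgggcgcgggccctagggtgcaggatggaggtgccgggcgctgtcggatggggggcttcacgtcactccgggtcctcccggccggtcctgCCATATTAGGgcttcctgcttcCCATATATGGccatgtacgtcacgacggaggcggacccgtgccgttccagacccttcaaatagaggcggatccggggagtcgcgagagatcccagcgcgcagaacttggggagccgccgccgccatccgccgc

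A total of 9 such windows matched 8 of the 10 genes (*SPRED2* has 2), and *DUSP4* and *DUSP5* had no entry. They were searched on both strands for the letters of 6 motifs, and the matches found do not overlap each other. The CArG box was found in *EGR1* alone, at 105 and 83 bases before its start, and in 1.29% of 35116 promoter windows of the same length. The CRE, TGACGTCA, was found in *DUSP1* alone, 125 bases before its start, and in 1.85% of all windows. The AP-1 motif, TGANTCA, was found in the second *SPRED2* window and in 7.71% of all windows. None of the 9 windows held the C/EBP motif TTGCNNAA (10.5% of all windows), the C/EBP-ATF motif TGATGCAA (0.866%) or the ETS motif ACCGGAAG (2.17%). A match is a stretch of letters and not a measured site, and the lack of one says only that these letters are not in the window.

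The other inducible phosphatases, *DUSP1*, *DUSP4* and *DUSP5*, were listed at 1.35 to 2.32 FPKM in the 4 libraries. *DUSP1*, a nuclear phosphatase of p38, JNK and ERK that is induced by stress and growth factors, had 1.87 and 1.83 FPKM in sh-NC and 1.43 and 1.35 FPKM in sh-CEBPG#3. The groups did not overlap, and the log2 fold change was -0.25 (95% confidence interval -0.51 to 0.01, adjusted p = 0.109 in limma). *DUSP4*, a nuclear relative of *DUSP1*, had 1.57 and 1.76 FPKM in sh-NC and 1.66 and 1.68 FPKM in sh-CEBPG#3, so that the knockdown libraries lay between the control libraries. Its log2 fold change was 0.003 (-0.26 to 0.26, adjusted p = 0.988 in limma). *DUSP5*, a nuclear phosphatase that acts on ERK, had 1.73 and 1.93 FPKM in sh-NC and 2.32 and 2.21 FPKM in sh-CEBPG#3. Its groups did not overlap either, with a log2 fold change of 0.21 (-0.05 to 0.46, adjusted p = 0.17 in limma).

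**Figure D2:**
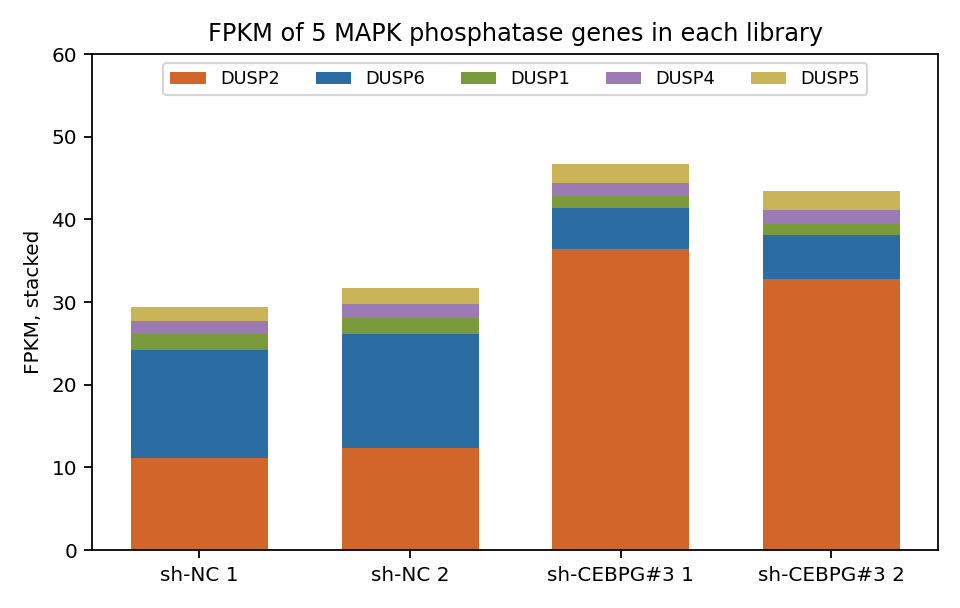
FPKM of the 5 phosphatase genes stacked in each of the 4 libraries (vertical axis from 0, 1 bar per library). *DUSP2* makes up 38.1% and 38.8% of the bar in sh-NC and 77.9% and 75.6% in sh-CEBPG#3, and *DUSP6* goes from 44.3% and 43.8% to 10.6% and 12.3%.

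FPKM is a level per length of transcript, so the 5 phosphatase genes can be set beside each other within a library. Their summed level was 29.4 and 31.7 FPKM in sh-NC and 46.8 and 43.4 FPKM in sh-CEBPG#3. *DUSP6* was the most abundant of them in both control libraries and *DUSP2* in both knockdown libraries, as the stacked bars show. The level of *DUSP2* relative to *DUSP6*, a ratio that no factor per library can change, was 0.859 and 0.884 in sh-NC and 7.36 and 6.16 in sh-CEBPG#3. It was thus 7.72 times higher in the knockdown libraries (ratio of geometric means). The sum of *DUSP1*, *DUSP4* and *DUSP5* was 5.18 and 5.51 FPKM in sh-NC and 5.41 and 5.24 FPKM in sh-CEBPG#3, with overlapping groups.

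The Sprouty and Spred genes did not pass the test. *SPRY4*, an inhibitor of RAS activation by receptor tyrosine kinases, had 1.54 and 1.88 FPKM in sh-NC and 1.65 and 1.50 FPKM in sh-CEBPG#3, with a log2 fold change of -0.07 (-0.35 to 0.20, adjusted p = 0.663 in limma). The control libraries alone were further apart than the group means. Its row NM_001127496 held 97.6% to 98.8% of the sum in the 4 libraries. *SPRED1*, which brings the RAS inactivator neurofibromin to the membrane, had 1.69 and 1.99 FPKM in sh-NC and 1.56 and 1.34 FPKM in sh-CEBPG#3. The knockdown libraries were lower without overlap, but the log2 fold change of -0.21 (-0.49 to 0.06) did not pass (adjusted p = 0.194 in limma). *SPRED2*, its close relative, was the most abundant of the 3, with 6.69 and 7.79 FPKM in sh-NC and 8.55 and 7.11 FPKM in sh-CEBPG#3. Its groups overlapped, with a log2 fold change of 0.10 (-0.15 to 0.34, adjusted p = 0.503 in limma).

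*EGR1*, an immediate-early zinc finger transcription factor, had 3.08 and 3.05 FPKM in sh-NC and 2.95 and 3.18 FPKM in sh-CEBPG#3. The control values lay between the knockdown values, and the log2 fold change was -0.001 (-0.23 to 0.23, adjusted p = 0.995 in limma). *PHLDA1*, a pleckstrin homology domain gene used as a readout of MEK and ERK activity, was the lowest of the 10 genes in both groups. It had 0.812 and 0.83 FPKM in sh-NC and 1.30 and 1.11 FPKM in sh-CEBPG#3, with no overlap. Its log2 fold change was 0.28 (-0.01 to 0.56, adjusted p = 0.113 in limma). The antisense gene *PHLDA1-AS1* overlaps its exons, and its reads cannot be told apart from those of *PHLDA1* where strand was not used.

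**Figure D3:**
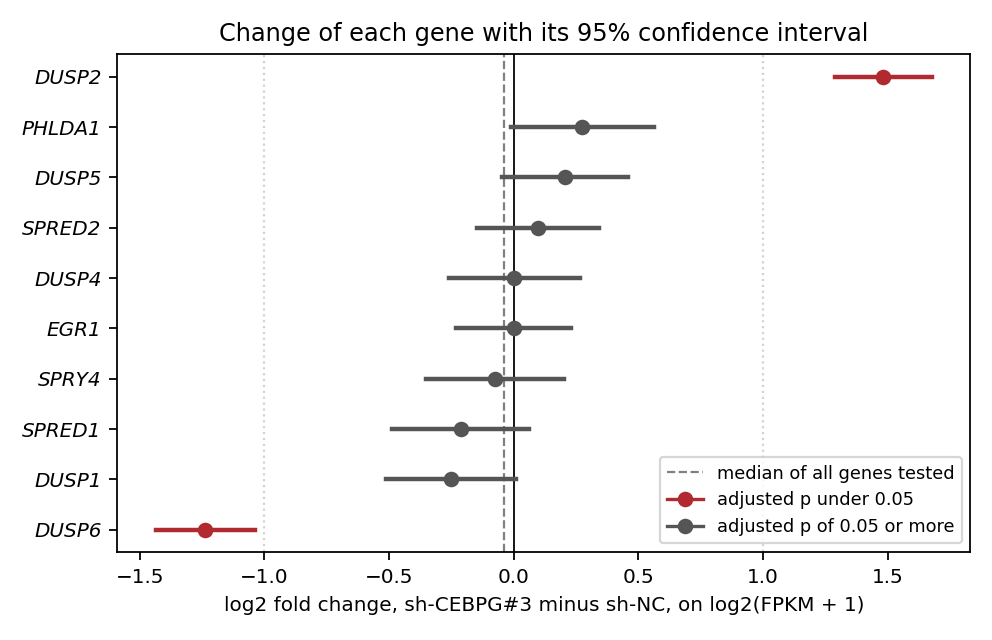
Log2 fold change of each of the 10 genes (horizontal axis, sh-CEBPG#3 minus sh-NC on the log2(FPKM + 1) scale) with its 95% confidence interval from limma. *DUSP2* (1.48) and *DUSP6* (-1.24), in red, passed an adjusted p of 0.05. The intervals of the other 8 genes, in grey, include 0, and the dashed line is the median of all genes tested, -0.04.

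For the 8 genes that did not pass, the intervals ran from -0.51 (*DUSP1*) to 0.56 (*PHLDA1*) on the log2(FPKM + 1) scale. Since these genes are low, the same intervals were wider with a pseudocount of 0.01, from -0.83 (*DUSP1*) to 1.13 (*PHLDA1*). Changes within a gene's own interval are not excluded for that gene. The groups did not overlap for 6 of the 10 genes, beside 71.7% of all genes tested. In sh-NC cells the order of the levels was *DUSP6*, *DUSP2*, *SPRED2*, *EGR1*, *DUSP1*, *SPRED1*, *DUSP5*, *SPRY4*, *DUSP4* and *PHLDA1*. The values of each neighbouring pair from *DUSP1* to *DUSP4* overlapped, and those of the other neighbours did not. In sh-CEBPG#3 cells the order was *DUSP2*, *SPRED2*, *DUSP6*, *EGR1*, *DUSP5*, *DUSP4*, *SPRY4*, *SPRED1*, *DUSP1* and *PHLDA1*, with overlap between *SPRY4* and *SPRED1* and between *SPRED1* and *DUSP1*. *DUSP6* thus went from the highest level of the 10 to the third, below *SPRED2*.

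The other genes of the pathway were described from 4 lists. Their counts stand beside all genes tested, of which 18.5% passed as higher and 23.8% as lower. Of the 17 genes of the cascade itself, 5 rose, 4 fell and 8 did not pass, with a median log2 fold change of 0.003, and none passed the threshold of the study. *MAPK3*, which encodes ERK1, had 9.90 and 11.6 FPKM in sh-NC and 15.0 and 13.8 FPKM in sh-CEBPG#3 (log2 fold change 0.40, adjusted p = 0.0079 in limma). The call of *MAPK3* was lost without sh-CEBPG#3 replicate 1 (0.34, adjusted p = 0.0523 in limma).

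Other changes in the cascade were in scaffolds, adaptors and RAS itself. The adaptor *GRB2* rose to 131% of its control mean (log2 fold change 0.39, adjusted p = 0.00199 in limma). *KSR1*, a scaffold that holds RAF, MEK and ERK together, fell to 66.6% (-0.50, adjusted p = 0.00287). *NF1*, which encodes neurofibromin, fell to 69.6% (-0.42, adjusted p = 0.0059), and did not pass when its most abundant RefSeq row stood for the gene (-0.29, adjusted p = 0.164). *NRAS* rose to 125% (0.31, adjusted p = 0.0141), but did not pass without sh-CEBPG#3 replicate 1 (0.25, adjusted p = 0.111) or with its most abundant row (adjusted p = 0.0599). With that row for each gene, 5 genes of the cascade passed (3 higher, 2 lower). *FLT3*, the receptor upstream, had 67.6 and 75.0 FPKM in sh-NC and 66.0 and 62.8 FPKM in sh-CEBPG#3 and did not pass (-0.14, adjusted p = 0.161 in limma).

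Among 8 substrates of ERK, 1 rose and 2 fell, with a median log2 fold change of -0.06. *MKNK2*, a kinase that phosphorylates the translation factor eIF4E, rose from 33.4 and 36.6 FPKM to 54.8 and 52.9 FPKM (0.61, adjusted p = 0.000187 in limma). *ELK3*, an ETS factor that acts with SRF, fell from 4.84 and 5.75 FPKM to 3.21 and 2.61 FPKM (-0.69, adjusted p = 0.0012). Its relative *ELK1* fell from 1.52 and 1.72 FPKM to 1.11 and 0.687 FPKM (-0.47, adjusted p = 0.0234), a call that was lost without sh-NC replicate 2 (-0.42, adjusted p = 0.0544), without sh-CEBPG#3 replicate 2 (-0.31, adjusted p = 0.133), with no filter and with the most abundant row. With quantile normalization 6 of the 8 substrates passed (3 higher, 3 lower).

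Of 12 further phosphatase, Sprouty and Spred genes, 11 were listed and 8 were tested, of which 3 rose and 1 fell, with a median log2 fold change of 0.27. The phosphatases *DUSP16*, known to act on JNK and p38, *DUSP7*, a close relative of *DUSP6*, and *DUSP3* rose by 0.44, 0.37 and 0.35 on the log2 scale (adjusted p = 0.00651, 0.00434 and 0.00486 in limma). *DUSP7* had 19.5 and 20.8 FPKM in sh-NC and 27.0 and 25.5 FPKM in sh-CEBPG#3, so it changed in the direction opposite to *DUSP6*. *SPRY2*, the most abundant of the Sprouty genes, fell from 15.0 and 14.9 FPKM to 11.7 and 11.4 FPKM (-0.35, adjusted p = 0.00625 in limma).

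Of 19 other immediate-early and output genes, 16 were tested, of which 7 rose and 4 fell, with a median log2 fold change of 0.19. *JUN*, a subunit of the AP-1 transcription factor, had the largest change, from 1.58 and 1.81 FPKM in sh-NC to 7.69 and 7.44 FPKM in sh-CEBPG#3, a ratio of 4.47 (log2 fold change 1.67, adjusted p = 1.61e-06 in limma). On the log2(FPKM + 1) scale it was the only gene of the 4 lists past the threshold of the study. This depends on the pseudocount, since *CCND1* had a log2 fold change of -1.01 with 0.1 and -1.06 with 0.01. *JUNB* and *FOS*, 2 more AP-1 subunits, rose by 0.65 and 0.48 on the log2 scale (adjusted p = 0.000109 and 0.00314 in limma). *MYC* fell from 217 and 249 FPKM to 140 and 136 FPKM (-0.75, adjusted p = 6.48e-05), *CCND1*, which encodes cyclin D1, fell from 2.62 and 3.21 FPKM to 1.34 and 1.43 FPKM (-0.71, adjusted p = 0.00118), and *IER5* fell from 25.4 and 28.9 FPKM to 17.6 and 19.4 FPKM (-0.53, adjusted p = 0.00118). Genes that are textbook targets of ERK were found in both directions, as were all genes tested (18.5% higher, 23.8% lower).

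**Figure D4:**
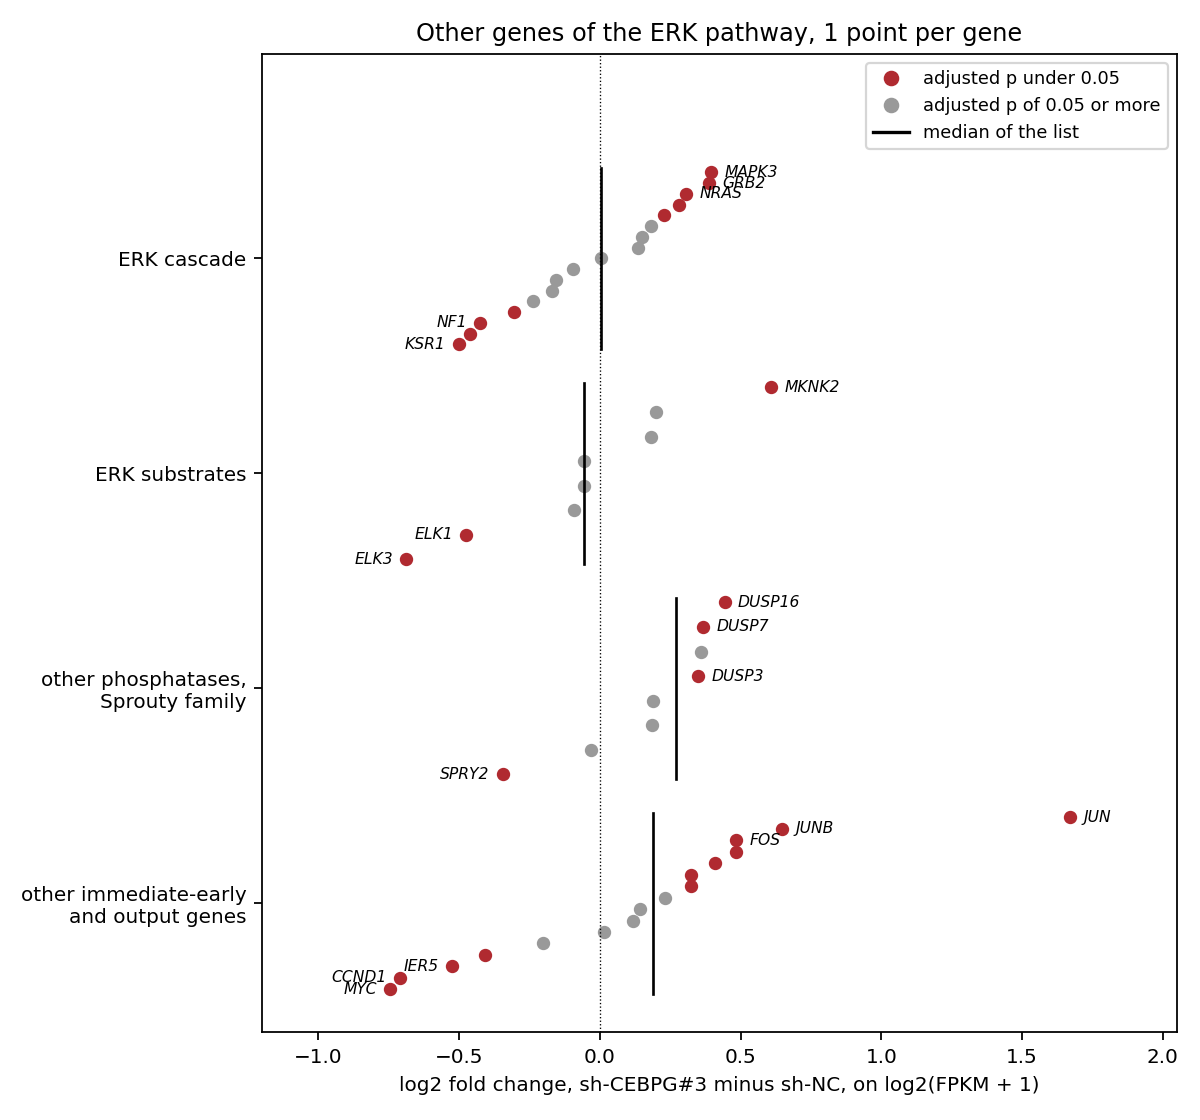
Log2 fold change (horizontal axis, sh-CEBPG#3 minus sh-NC on the log2(FPKM + 1) scale) of the tested genes of 4 lists of the ERK pathway, 1 point per gene, in red where the adjusted p in limma was under 0.05. The black line is the median of each list (0.003, -0.06, 0.27 and 0.19 from top to bottom), and *JUN* stands alone at 1.67.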

How the data were processed

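RNA was extracted with Trizol, and libraries were made with an Illumina TruSeq RNA kit. Per the labels and the study's methods, the authors kept clean reads, aligned these with HISAT (HISAT2 2.0.5 and hg38 in the submitters' processing notes) and deposited FPKM values, 1 per RefSeq row and library. The annotation and the program that computed FPKM are not given in the sources used here. Of 28780 rows, 199 had no value. The rest were summed by symbol. Log2(FPKM + 1) values of the 12142 genes averaging 0.5 FPKM or more were fitted with limma 3.58.1 (R 4.3.3, eBayes with a trend, no block), with Benjamini-Hochberg adjustment over all of them. The study's DESeq2 needs counts, which FPKM values do not carry, and no steps of whole reads were found. Of 1027 rows under 0.06 FPKM in both sh-NC libraries, at most 0.58% shared 1 ratio.

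Groups and replicate numbers came from the sample titles. The 10 genes, the lists and the motifs were chosen with earlier results of these data known. The genes named from the 4 lists are up to 3 with the largest rise and 3 with the largest fall among those with an adjusted p under 0.05. *FLT3*, *MEIS1*, *HOXA9* and *CD14* were singled out from the marker list after their values were seen. Simulated data were used to test the fit. Alternatives were other pseudocounts, filters and scalings, the replicate block, no variance trend, each library left out, and the most abundant RefSeq row. Figures were drawn with matplotlib 3.10.9. Protein sequences were not used here, and some results for single genes are not reported.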

Additional observations from a re-analysis of the deposited data

How the results depend on the processing

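The changes of *DUSP2* and *DUSP6* kept their direction and stayed past an adjusted p of 0.05 in limma under the 9 alternatives that sum or choose rows by gene and with each library left out. The exception was the *DUSP6* row NM_022652 tested by itself (-0.92, adjusted p = 0.0672). With a library left out, which leaves 1 in its group that is assumed to vary like the others, *DUSP2* lay between 1.41 and 1.56, *DUSP6* between -1.28 and -1.19 and *CEBPG* between -0.87 and -0.70. Without a variance trend, *DUSP1* (-0.25, adjusted p = 0.048 in limma) and *PHLDA1* (0.28, adjusted p = 0.0422) also passed, so 4 genes were called. The cause was not tested.

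Several changes near 0 turned sign. *DUSP4* was -0.013 with equal totals, and *EGR1* was 0.040 with quantile normalization. Leaving out a library put *DUSP4* between -0.047 and 0.052, *EGR1* between -0.042 and 0.040, *SPRY4* between -0.16 and 0.015 and *SPRED2* between -0.019 and 0.22. Over all genes, 5128 were called, and 2864 with the most abundant row. Past the threshold of the study were 414 genes (286 higher, 128 lower), 827 with a pseudocount of 0.1 (490 higher, 337 lower) and 882 with 0.01 (509 higher, 373 lower). In the cascade list 9 genes were called, and 5 with the most abundant row. Of the substrates 3 were called, and 6 with quantile normalization. With a library left out these 2 lists had 6 to 9 and 2 to 3 calls.

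The deviations of same-numbered libraries had a correlation of 0.061 over genes. Whether these libraries share more than a number is not given in the sources used here. With the replicate block 2 of the 10 genes and 4761 of all genes were called, and of the named genes none changed its call. Without counts, how depth limits the low genes was not tested.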
